A study of Mus musculus with 8 samples.

Results

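TAM receptors and genes of efferocytosis, the clearance of dying cells by phagocytes, were examined in hepatic macrophages exposed to cholesterol crystals (CC). The 10 members were chosen by symbol as rows of the deposited gene table: the receptors *Mertk*, *Axl* and *Tyro3*, the ligands *Gas6* and *Pros1*, the bridging protein gene *Mfge8*, the engulfment genes *Elmo1* and *Dock1*, the sheddase gene *Adam17* and the receptor gene *Cd300lf*. They are 10 of 55401 rows, and 9 of them were among the 15202 genes tested, since *Tyro3* was below the filter of 0.5 CPM (counts scaled to the library total) in every library. The macrophages came from normal livers of WT mice on a standard diet or from steatotic livers of MC4R-KO mice, both on a C57BL/6J background, and the latter had received Western diet over 6 to 10 wk. In the longer feeding experiments, male mice began Western diet at 8 wk of age, whereas the sex and age behind these cultures and the number of animals per library are not given in the sources used here. F4/80-positive cells were enriched on magnetic columns, seeded on collagen-coated plates and treated with vehicle (Veh) or CC at 500 μg/ml over 24 h, and poly(A) RNA was sequenced from 2 libraries in each of the 4 groups. Genotype and diet changed together between the livers, so their contributions cannot be told apart.

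Apoptotic cells expose phosphatidylserine, a lipid that marks them for uptake. The proteins GAS6 and PROS1 bind this lipid with one end and a TAM receptor (TYRO3, AXL or MERTK) with the other, and MFGE8 bridges the lipid to integrins. Engulfment then runs through ELMO1 and DOCK1, which together activate the small GTPase RAC1, while ADAM17 can cleave MERTK from the cell surface. In mouse liver, Kupffer cells are known to carry both MERTK and AXL.

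Because *Gas6*, *Pros1*, *Mertk* and *Axl* fell together with CC, the 250 bases before their RefSeq transcription starts are shown (GRCm38.p6, 5′ to 3′ on the strand of the gene), with capitals for the GC box GGGCGG or its reverse complement CCGCCC, the letters bound by SP1-type factors.
*Gas6*, chr8:13494536-13494785, minus strand: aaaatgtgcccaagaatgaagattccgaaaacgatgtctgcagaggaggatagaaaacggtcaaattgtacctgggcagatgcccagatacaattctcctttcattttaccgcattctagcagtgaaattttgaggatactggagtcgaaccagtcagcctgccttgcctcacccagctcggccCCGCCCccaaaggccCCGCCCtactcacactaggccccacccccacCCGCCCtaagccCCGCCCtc
*Pros1*, chr16:62854057-62854306, plus strand: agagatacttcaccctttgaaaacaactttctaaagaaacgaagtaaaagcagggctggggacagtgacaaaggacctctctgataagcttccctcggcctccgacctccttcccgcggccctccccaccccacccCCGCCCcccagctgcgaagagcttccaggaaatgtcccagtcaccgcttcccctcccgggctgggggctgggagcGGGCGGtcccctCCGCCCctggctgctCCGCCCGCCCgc
*Mertk*, chr2:128698665-128698914, plus strand: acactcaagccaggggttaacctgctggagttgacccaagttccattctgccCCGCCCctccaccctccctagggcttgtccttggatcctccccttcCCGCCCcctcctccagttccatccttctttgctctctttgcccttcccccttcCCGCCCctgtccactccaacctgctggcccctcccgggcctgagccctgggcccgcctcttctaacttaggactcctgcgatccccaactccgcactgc
*Axl*, chr7:25788734-25788983, minus strand: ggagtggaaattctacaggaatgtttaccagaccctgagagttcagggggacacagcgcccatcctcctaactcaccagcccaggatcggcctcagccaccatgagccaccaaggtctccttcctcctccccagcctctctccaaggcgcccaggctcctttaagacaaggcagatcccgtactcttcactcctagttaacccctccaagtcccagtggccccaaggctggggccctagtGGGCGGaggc
These windows held 4, 5, 3 and 1 GC boxes, in the same order. A GC box was found upstream of 9 of the 10 members, the exception being *Cd300lf*, and in 9 of the members' 11 windows. It was present in 32.7% of the 32851 RefSeq windows of this length, which were not matched to the members in base content or expression. The EGR1 letters GCGNGGGCG, present in 4.7% of all windows, occurred upstream of *Elmo1* alone among the members, where they overlapped a GC box. On both strands, none of the members held the E-box CACGTG of TFE3 and TFEB (6.02% of windows), the AP-1 letters TGANTCA (6.75%), the PU.1 letters GAGGAAGT (2.44%) or the LXR direct repeat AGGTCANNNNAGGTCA (0.0152%). These matches describe letters only, not binding. In GRCm38, *Gas6* spans chr8:13465374-13494490 with 15 merged exons, *Pros1* chr16:62854307-62929346 with 16, *Mertk* chr2:128698956-128802894 with 19 and *Axl* chr7:25757273-25788705 with 19, all protein-coding.

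The libraries held 58668655 to 74529462 counts, and the Pearson correlation across genes between the 2 libraries of a group was 0.983 to 0.985 on log2 CPM. *Mc4r*, which is knocked out in MC4R-KO mice, had 0 counts in the 4 libraries labelled normal and 22 to 72 counts in the 4 labelled steatotic. Counts of the gene in MC4R-KO libraries would need reads from the knockout allele, which was not tested. They are few, and so do not settle whether the labels hold. The groups are called by their labels, and each direction between livers rests on them. With Veh, 6 of the 8 recruited monocyte markers were higher and 1 lower with the label steatotic (median log2 fold change 2.59), and all 6 T or NK cell markers were higher (median 3.62). The 8 macrophage markers summed to 16200 to 16700 CPM with the label normal and Veh, 13200 to 13400 with CC, 13500 to 13800 with the label steatotic and Veh, and 10900 to 11800 with CC. *Lyz2* and *Cd68* carried the difference in this sum between the livers with Veh, since the other 6 summed to 5050 to 5090, 3840 to 3870, 7940 to 8080 and 4950 to 5370 CPM in the same order, and 4 of the 8 were higher and 3 lower with the label steatotic and Veh (median log2 fold change 0.18). The 9 Kupffer cell markers summed to 3530 to 3680, 2860 to 3080, 5000 to 5280 and 3540 to 4390 CPM in the same order, or without *Cd5l* and *Folr2* to 1310 to 1510, 1000 to 1050, 1340 to 1520 and 813 to 1210, and no marker of either list was at 0 in all libraries. The 8 recruited monocyte markers lay at 132 to 201, 166 to 176, 546 to 549 and 355 to 479 CPM. In RNA of a whole culture, fewer cells of a type and less RNA per cell cannot be told apart. The part of these marker shifts in the results was not tested.

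Levels in each library are given as CPM scaled with edgeR's TMM factors. *Axl*, which encodes a TAM receptor, was measured at 878 and 879.7 CPM with the label normal and Veh and at 669 and 697 with CC. With the label steatotic, it was at 826 and 865 CPM with Veh and at 563 and 583 with CC. Each CC library was thus below each Veh library, and the lowest values were those labelled steatotic with CC. *Mertk*, the TAM receptor gene used by resident macrophages to take up apoptotic cells, was at 266 and 273 CPM with the label normal and Veh and at 194 and 195 with CC. For the label steatotic, *Mertk* was at 315 in both Veh libraries and at 211 and 229.5 CPM with CC. The Veh and CC libraries of *Mertk* did not overlap within either label, and with each treatment the libraries labelled steatotic were the higher ones. *Tyro3*, the remaining TAM receptor gene, had 16 and 0 counts with the label normal and Veh, 5 and 16 with CC, 16 and 4 with the label steatotic and Veh, and 0 and 6 with CC. A count of 3 corresponded to 0.0403 to 0.0511 CPM, which takes only counting error into account and is too low if 1 fragment stands for about 4 counts, and *Tyro3* was under the filter. In the fit of all 28711 genes with any count, its log2 fold change with CC had a 95% interval of −3.06 to 4.34 with the label normal and −5.66 to 2.15 with the label steatotic, so no difference was detectable at this depth.

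*Gas6*, the ligand of all TAM receptors, was at 91.6 and 86.6 CPM with the label normal and Veh and at 48.4 and 46.9 with CC. For the label steatotic, *Gas6* was at 85.1 and 93.0 CPM with Veh and at 22.6 and 24.9 with CC. The Veh libraries of both labels covered the same range, while the CC libraries formed a lower and a still lower pair. *Pros1*, which encodes protein S, a ligand of MERTK and TYRO3 better known as an anticoagulant cofactor, was at 35.5 and 35.9 CPM with the label normal and Veh and at 26.8 and 29.1 with CC. With the label steatotic, it was at 38.7 and 42.3 CPM with Veh and at 19.6 in both CC libraries. The order of the groups was as for *Gas6* with CC, and with Veh the steatotic libraries were the higher pair. *Mfge8* was low, at 3.99 and 6.23 CPM with the label normal and Veh, 5.46 and 5.71 with CC, 8.36 and 6.40 with the label steatotic and Veh, and 11.2 and 11.7 with CC. Its highest pair was the group in which *Gas6* and *Pros1* were lowest.

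*Elmo1* was at 117 and 121 CPM with the label normal and Veh, 118 and 115 with CC, 136 and 127 with the label steatotic and Veh, and 104 in both steatotic CC libraries. Only this last group lay below all others. *Dock1* ranged from 19.8 to 32.5 CPM, and its groups with the label steatotic, at 26.0 and 22.9 with Veh and 19.8 and 23.7 with CC, overlapped each other. *Adam17* stayed between 223 and 267 CPM in all 8 libraries. *Cd300lf*, a receptor of the CD300 family that binds phosphatidylserine, ranged from 62.2 to 82.1 CPM, with the highest pair, 81.2 and 82.1, in the libraries labelled steatotic with CC.

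**Figure D1:**
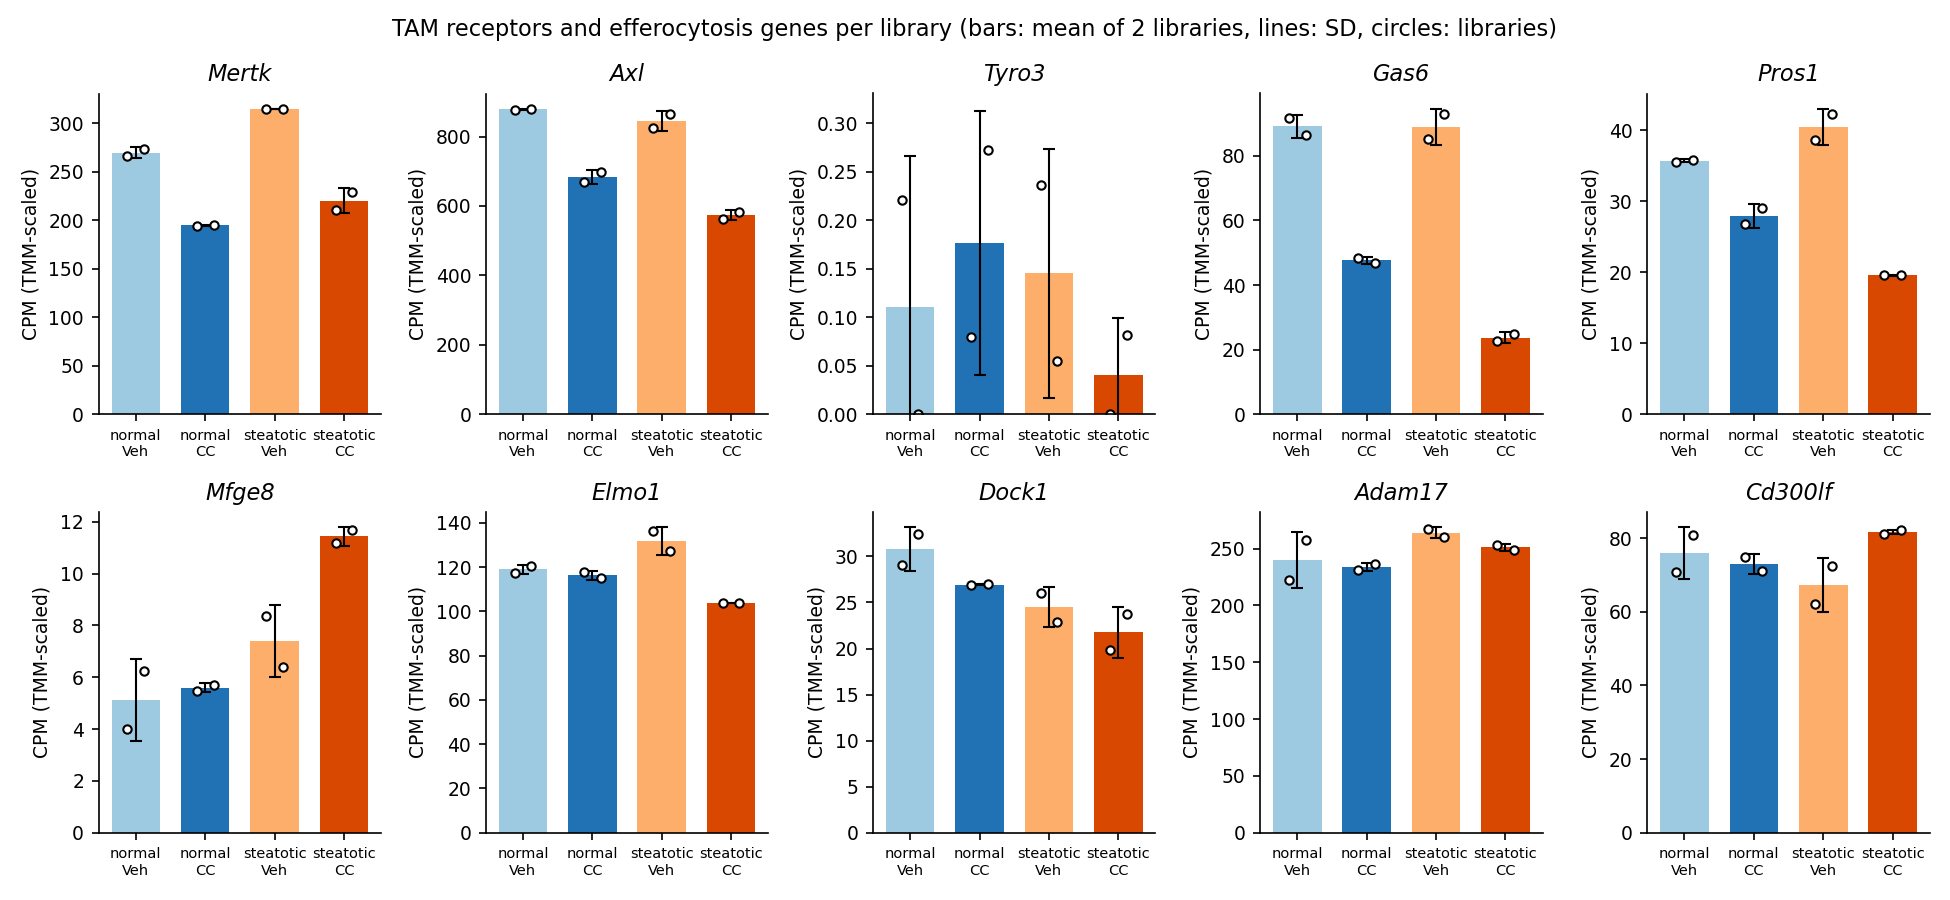
Level of each of the 10 genes (vertical axes, TMM-scaled CPM, each from 0) in the 4 groups; bars are means of 2 libraries, lines the SD and circles the libraries. *Gas6* was at 85.1 to 93.0 CPM in the 4 Veh libraries and at 22.6 to 24.9 in the 2 labelled steatotic with CC, while *Mfge8* had its highest pair, 11.2 and 11.7 CPM, in that group.

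To compare genes with each other, levels were divided by the length of the merged exons (CPM per kb). With the label normal and Veh, *Axl* was the highest member at 175 ± 0.264 CPM per kb (SD, n = 2), followed by *Mertk* at 62.2 ± 1.21. *Gas6* at 35.0 ± 1.41 and *Adam17* at 33.5 ± 3.42 came next and did not differ beyond their spread. *Cd300lf* (14.7 ± 1.37), *Elmo1* (9.46 ± 0.174), *Pros1* (8.73 ± 0.0597), *Dock1* (3.30 ± 0.255), *Mfge8* (1.09 ± 0.338) and *Tyro3* (0.0178 ± 0.0252) followed in this order of CPM per kb. With the label steatotic and CC, *Axl* (114 ± 2.81) and *Mertk* (50.8 ± 3.04) were still the highest 2 per kb. *Gas6* was at rank 5 in this group, at 9.31 ± 0.626 CPM per kb, and at rank 4 with the label normal and CC and with the label steatotic and Veh. In the libraries labelled steatotic with CC it lay behind *Adam17* (35.1 ± 0.438) and *Cd300lf* (15.9 ± 0.126). *Mfge8* (2.44 ± 0.0756) and *Dock1* (2.33 ± 0.299) did not differ beyond their spread in this group.

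The response to CC was tested first with the label normal, with all 8 libraries in 1 model (edgeR quasi-likelihood test, Benjamini-Hochberg adjustment over the 15202 genes, threshold 0.05). Nothing states that the 2 libraries of a group came from separate cultures or animals, so p-values measure the spread between these libraries, which may be technical. Of the 9 members tested, 4 fell and 0 rose, where 5.54% of all tested genes fell and 6.27% rose. The median log2 fold change of the members was −0.19, against −0.001 over all tested genes. With the same label, 6 of the 8 macrophage markers fell and 1 rose (median −0.40), and 5 of the 9 Kupffer cell markers fell and 0 rose (median −0.48). *Gas6* fell by 0.90 on the log2 scale (SE 0.0694, adjusted p = 0.000234 by edgeR), or 1.87-fold. *Mertk* fell by 0.47 (SE 0.0466, adjusted p = 0.00073 by edgeR) and *Axl* by 0.36 (SE 0.0390, adjusted p = 0.00104). *Pros1* fell by 0.35 (SE 0.0740, adjusted p = 0.0209 by edgeR), but this call was lost without replicate 1 or 2 with the label normal and Veh (adjusted p = 0.0904 and 0.0908) and without replicate 1 with the label normal and CC (0.117). The log2 fold changes of *Mfge8*, *Elmo1*, *Dock1*, *Adam17* and *Cd300lf* lay between −0.19 and 0.13 and did not pass the test.

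Under the label steatotic, 5 of the 9 members fell with CC and 0 rose, where 10.9% of all tested genes fell and 12% rose, and the members' median log2 fold change was −0.34, against 0 over all tested genes. Of the macrophage markers, 5 of 8 fell and 2 rose (median −0.40), and of the Kupffer cell markers, 7 of 9 fell and 1 rose (median −0.45), and the part of these falls in those of *Mertk* and *Axl* was not tested. *Gas6* fell by 1.91 (SE 0.0715, adjusted p = 3.16e-06 by edgeR), or 3.75-fold, with 0.822% of all tested genes at or below its log2 fold change. *Pros1* fell by 1.05 (SE 0.0748, adjusted p = 5.79e-05 by edgeR), or 2.07-fold. The receptor genes moved less, *Axl* by −0.56 (SE 0.0391, adjusted p = 5.24e-05 by edgeR) and *Mertk* by −0.52 (SE 0.0465, adjusted p = 0.000186). *Elmo1*, whose product partners DOCK1 in RAC1 activation, fell by 0.34 (SE 0.0466, adjusted p = 0.00144 by edgeR). *Mfge8* had a log2 fold change of 0.63 (95% interval 0.12 to 1.14, adjusted p = 0.080 by edgeR), which passed the threshold in DESeq2 (adjusted p = 0.0447). *Cd300lf* had 0.28 (95% interval 0.07 to 0.48, adjusted p = 0.0601 by edgeR) and likewise passed in DESeq2 (0.0394). The intervals of *Dock1* (−0.43 to 0.09) and *Adam17* (−0.22 to 0.08) included no change.

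**Figure D2:**
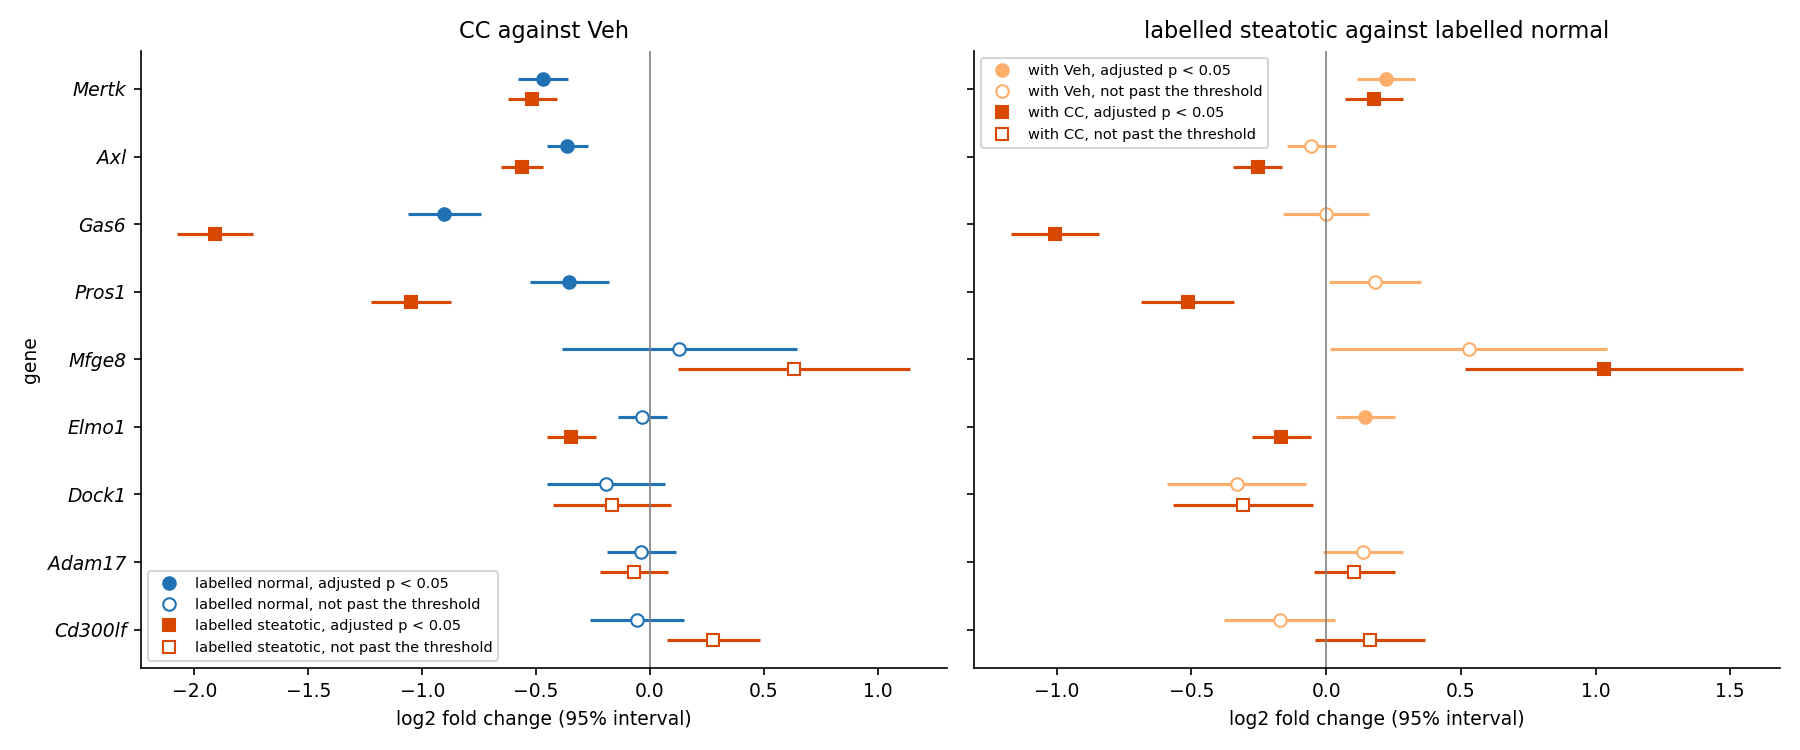
Log2 fold changes of the 9 tested members with 95% intervals (lines), for CC against Veh on the left and for the libraries labelled steatotic against those labelled normal on the right; filled symbols had an adjusted p under 0.05 in edgeR. *Gas6* and *Pros1* lie farthest to the left with CC in the libraries labelled steatotic, at −1.91 and −1.05.

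The responses to CC with the 2 labels rest on separate libraries, and their difference was tested as an interaction. It passed for 2 of the 9 members, both with the larger fall in the libraries labelled steatotic, where 1.27% of all tested genes had a lower and 1.95% a higher response there. The difference was −1.01 on the log2 scale for *Gas6* (95% interval −1.23 to −0.78, adjusted p = 0.00327 by edgeR). For *Pros1* it was −0.69 (95% interval −0.94 to −0.45, adjusted p = 0.0139 by edgeR), and this call was lost without replicate 1 (adjusted p = 0.0517) or 2 (0.0501) with the label normal and Veh, replicate 2 with the label normal and CC (0.0502) or replicate 2 with the label steatotic and Veh (0.0542). The difference did not pass for *Elmo1* (−0.31, adjusted p = 0.0528 by edgeR, but 0.0362 in DESeq2) or *Axl* (−0.20, adjusted p = 0.128 by edgeR). For *Mertk* the difference was −0.05 with a 95% interval from −0.20 to 0.11. Those of *Mfge8* (0.50, −0.22 to 1.23), *Dock1* (0.02, −0.34 to 0.39) and *Adam17* (−0.03, −0.24 to 0.18) had intervals that included 0, whereas that of *Cd300lf* (0.34, 0.05 to 0.62) did not, with an adjusted p of 0.271 by edgeR.

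Markers of other liver cells shifted with the groups as well. The 12 sinusoidal endothelial markers summed to 128 to 135 CPM with the label normal and Veh, 138 to 141 with CC, 328 to 342 with the label steatotic and Veh, and 243 to 247 with CC. The 16 hepatocyte markers summed to 161 to 169, 131 to 148, 112 to 126 and 63 to 68.9 CPM, and the 12 markers of stellate cells or fibroblasts to 196 to 206, 136 to 189, 326 to 338 and 333 to 363 CPM, in the same order of groups. None of these markers was at 0 in all libraries, and 11, 13 and 4 of them passed the filter. The hepatocyte sum rested on *Trf* and *Alb*. *Trf* was at 93.2 to 118 CPM in the 4 Veh libraries and at 46.8 to 74.0 with CC, and without it the sums were 67.7 to 71.2, 61.9 to 73.8, 7.29 to 8.08 and 15.3 to 16.2 CPM. *Alb* was at 41.0 to 48.2 CPM with the label normal and at 1.24 to 2.35 with the label steatotic, and 8 of the 13 hepatocyte markers tested were lower there with Veh and 0 higher. In the stellate list, *Ecm1* had most of the sum, and *Dcn*, encoding decorin, went from 2.02 and 2.09 CPM with the label normal and Veh to 110 and 138 with the label steatotic and CC. The 5 cholangiocyte markers summed to 17.4 to 18.1, 27.3 to 28.4, 61.2 to 69.5 and 333 to 360 CPM. Without *Spp1*, which macrophages can also express, the sums were 5.51 to 7.68, 7.42 to 8.56, 10 to 11.4 and 11 to 14 CPM. The 6 T or NK cell markers summed to 0.580 to 0.929 CPM with the label normal and 11.4 to 15.1 with the label steatotic. The 6 neutrophil markers summed to 59.4 to 79.3 and 128 to 157 CPM with the 2 labels, nearly all of it *Csf3r*, with *Ly6g* at 0 throughout. The 4 B cell markers lay at 0.871 to 2.90 CPM and the 6 dendritic cell markers at 4.79 to 9.47. Their part in the falls of *Gas6* and *Pros1* was not tested. *Gas6* shares 34 exonic bases with *Tmem255b* on the other strand, *Elmo1* 403 with *Gm32036* and *Adam17* 311 with *Iah1*. The kit marks strand, but the strand setting of the counting is not given in the sources used here.

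The liver labels were then compared with each treatment. These comparisons share libraries with the CC responses above and are not independent of them. With Veh, 2 of the 9 members were higher with the label steatotic and 0 lower, where 16.4% of all tested genes were higher and 14.3% lower. The median log2 fold change was 0.14 for the members and −0.01 for all tested genes. *Mertk* was 1.17-fold higher (log2 fold change 0.22, SE 0.0464, adjusted p = 0.00873 by edgeR), a call lost without replicate 1 with the label normal and Veh (adjusted p = 0.0549). *Elmo1* was 1.11-fold higher (log2 fold change 0.15, adjusted p = 0.0496 by edgeR), and this call was lost in 13 of 19 alternative settings. Among these were DESeq2 (adjusted p = 0.0995), library size only (0.144 by edgeR) and glmTreat against a 1.5-fold change. Its log2 fold change was 0.095 without replicate 1 with the label steatotic and Veh. *Gas6* had a log2 fold change of −0.001 (95% interval −0.16 to 0.16) and *Axl* of −0.06 (−0.15 to 0.04). *Pros1* (0.18), *Mfge8* (0.53), *Dock1* (−0.33), *Adam17* (0.14) and *Cd300lf* (−0.17) did not pass the test, with adjusted p from 0.058 to 0.186 by edgeR. *Dock1* passed in DESeq2 (adjusted p = 0.0474) and with library size only (0.0359 by edgeR). With 1 library left out in turn, *Mfge8* ranged from 0.24 to 0.88 and *Adam17* from 0.04 to 0.24, and both passed without replicate 2 with the label normal and Veh (adjusted p = 0.0211 and 0.0111 by edgeR).

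With CC, 4 of the 9 members were lower and 2 higher with the label steatotic, where 12.9% of all tested genes were lower and 15.9% higher, and the medians were −0.17 and 0.003. *Gas6* was 2.01-fold lower (log2 fold change −1.01, SE 0.0702, adjusted p = 4.13e-05 by edgeR) and *Pros1* 1.43-fold lower (−0.51, adjusted p = 0.00179). *Axl* was 1.19-fold lower (−0.25, adjusted p = 0.00238 by edgeR). The 1.12-fold lower level of *Elmo1* (adjusted p = 0.0332 by edgeR) was lost in 7 of 19 settings, among them DESeq2 (0.0619) and the fits that left out each of the 4 CC libraries (0.0806 to 0.141). *Mfge8* was 2.04-fold higher (log2 fold change 1.03, SE 0.221, adjusted p = 0.0108 by edgeR), a call lost without replicate 1 (0.0658) or 2 (0.0546) with the label normal and CC or replicate 2 with the label steatotic and CC (0.0531). *Mertk* was 1.13-fold higher (0.18, adjusted p = 0.0253 by edgeR), and that call was lost without replicate 1 (0.104) or 2 (0.0937) with the label normal and CC, replicate 1 with the label steatotic and Veh (0.0523) or replicate 2 with the label steatotic and CC (0.104). The 2 receptor genes thus lay on opposite sides with CC. *Dock1*, *Adam17* and *Cd300lf* did not pass the test (adjusted p from 0.0785 to 0.279 by edgeR).

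Genes with related roles were counted from lists, beside the shares of all tested genes given above. Of 21 other receptors and bridging proteins for phosphatidylserine that were tested, 9 fell and 3 rose with CC under the label normal, and 10 fell and 7 rose under the label steatotic, with median log2 fold changes of −0.04 and 0.11. *C1qc*, a chain of complement C1q, which opsonizes dying cells, fell by 1.62 and by 1.63 (adjusted p = 3.22e-05 and 7.69e-06 by edgeR). It was at 724 and 678 CPM with the label normal and Veh and at 226 and 231 with CC, and at 1865 and 1964 with the label steatotic and Veh and 576 and 662 with CC. *Itgb5*, an integrin subunit that binds MFGE8, fell by 0.74 and by 1.27, and the fall was larger with the label steatotic (difference −0.53, adjusted p = 0.0113 by edgeR). *Itgb5* was at 126.5 and 122.5 CPM with the label normal and Veh and at 71.2 and 77.7 with CC. With the label steatotic it was higher, at 239 and 247 CPM with Veh and 98.7 and 102.5 with CC. *Thbs1*, encoding thrombospondin 1, which bridges dying cells to CD36 and integrins, rose with each label, by 0.35 and 1.23 (difference 0.89, adjusted p = 0.00531 by edgeR), and the call with the label normal was lost without replicate 1 with Veh or either replicate with CC (adjusted p up to 0.104). In the Veh libraries, *Thbs1* was at 22.2 and 25.3 CPM with the label normal and at 216 and 203.5 with the label steatotic. With Veh, 13 of the 21 were higher and 4 lower with the label steatotic. *Anxa1*, encoding the phosphatidylserine-binding annexin A1, was 11.1-fold higher, and *Anxa5*, encoding annexin A5, was 1.52-fold lower.

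The CD300 family, to which *Cd300lf* belongs, had 9 genes tested of 11. With the label steatotic, 5 fell and 1 rose with CC, and with the label normal 1 fell and 2 rose. *Cd300a*, another phosphatidylserine receptor of the family, fell with each label (log2 fold changes −0.24 and −0.50), although the first call was lost without each of the 4 libraries labelled normal (adjusted p up to 0.120). *Cd300lb* rose by 0.32 and 0.15, and the second call was lost in 12 of 19 settings, DESeq2 among them (adjusted p up to 0.193 apart from glmTreat against a 1.5-fold change). *Cd300ld2*, *Cd300ld3* and *Cd300ld5* fell with CC in the libraries labelled steatotic, with log2 fold changes of −0.93, −0.78 and −0.88. No difference between the responses to CC passed the test in this family (the lowest adjusted p was 0.0503 by edgeR, for *Cd300ld5*). These *Cd300ld* genes are near copies of each other, so their reads may have been split between them.

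Of 19 tested genes of the ELMO, DOCK and Rac machinery other than the members, 5 fell and 0 rose with CC under the label normal, and 9 fell and 4 rose under the label steatotic. *Elmo2*, a paralog of *Elmo1*, fell by 0.22 and by 0.55 (adjusted p = 0.0482 and 0.000427 by edgeR), but the call with the label normal was lost in DESeq2 and without each of the 8 libraries in turn (adjusted p up to 0.216). *Dock8*, encoding an activator of CDC42, fell by 0.43 and by 0.75. *Rhog*, encoding the GTPase that recruits ELMO, fell by 0.26 and by 0.49. *Dock2*, the Rac activator typical of leukocytes, was at 256 and 270 CPM with the label normal and Veh and at 258 and 252 with CC. With the label steatotic it fell from 409 and 403 to 342 and 336 CPM (log2 fold change −0.26, adjusted p = 0.00238 by edgeR). With Veh, 11 of the 19 were higher and 1 lower with the label steatotic, *Rhog* by 0.90 and *Dock2* by 0.63.

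Around *Adam17*, 10 regulators and related sheddases were tested. With CC, 2 rose and 1 fell with the label normal, and 3 rose and 3 fell with the label steatotic. *Rhbdf2*, encoding iRhom2, which brings ADAM17 to the cell surface, rose by 0.28 and 0.26 (adjusted p = 0.00383 and 0.00261 by edgeR). *Adam10*, the closest relative of *Adam17*, fell by 0.42 and by 0.40, and *Adam8* rose by 0.54 and 0.43. With the label steatotic, *Adam9* fell by 0.82 (adjusted p = 0.00515 by edgeR, but 0.0512 with only the 4 libraries of the comparison) and *Pacs2*, a trafficking gene, rose by 0.46, against log2 fold changes of −0.30 and 0.32 with the label normal that did not pass. *Timp3*, encoding the inhibitor of ADAM17, was 1.04 higher on the log2 scale with the label steatotic and Veh (adjusted p = 0.000894 by edgeR), while its log2 fold changes with CC were 0.21 and 0.06.

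Of 17 nuclear receptors and factors that act on efferocytosis genes, 4 rose and 3 fell with CC under the label normal, and 3 rose and 7 fell under the label steatotic. *Maf*, a factor of resident macrophages, fell by 0.49 and by 0.74. The immediate early gene *Nr4a1* rose by 0.65 and 1.06, and *Klf4* by 0.58 and 1.19, although its call with the label normal was lost without replicate 1 with Veh or replicate 2 with CC (adjusted p up to 0.0719 by edgeR). Among 31 genes of corpse digestion and LC3-associated phagocytosis, 9 rose and 3 fell with the label normal, and 10 rose and 5 fell with the label steatotic. *Abca1*, a cholesterol exporter induced by LXR, rose by 1.22 and 1.16 (adjusted p = 3.22e-05 and 1.02e-05 by edgeR), and *Ucp2*, a mitochondrial carrier gene, fell by 0.75 and by 1.28. *Mertk*, which LXR is also known to induce, fell in the same libraries by 0.47 and by 0.52. Of 13 signalling partners and feedback genes of TAM receptors, 2 rose and 2 fell with the label normal, and 4 rose and 3 fell with the label steatotic. *Socs3*, a feedback inhibitor of cytokine signalling, rose by 0.52 and 0.60, and the phosphatase gene *Ptpn1* fell by 0.46 and by 0.82. The kinase gene *Src* rose by 0.43 and 0.88. Of the 10 eat-me and do-not-eat-me genes, 1 rose and 1 fell with the label normal and 2 rose and 3 fell with the label steatotic, and of 9 receptors for find-me signals 2 rose and 2 fell, and 4 rose and 3 fell. *Pecam1*, a do-not-eat-me signal also typical of endothelial cells, fell by 1.30 with the label steatotic and did not pass with the label normal. With Veh, *Pecam1* was 3.77-fold higher with the label steatotic than with the label normal (adjusted p = 4.69e-06 by edgeR). *Lilrb4a*, an inhibitory receptor gene, rose by 0.53 and 0.91. Among the find-me receptors, *C5ar1* fell by 0.46 and by 0.51, *P2ry6* fell by 0.32 and by 0.84, and *P2rx7* rose by 0.29 and 0.21. The smaller change of *P2ry6* lost its call without replicate 1 with Veh or replicate 2 with CC of the label normal (adjusted p up to 0.0732 by edgeR), and that of *P2rx7* without replicate 2 with Veh of the label steatotic (0.0597). *S1pr1* had log2 fold changes of −0.03 with the label normal, which did not pass, and 0.51 with the label steatotic, which did.

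**Figure D3:**
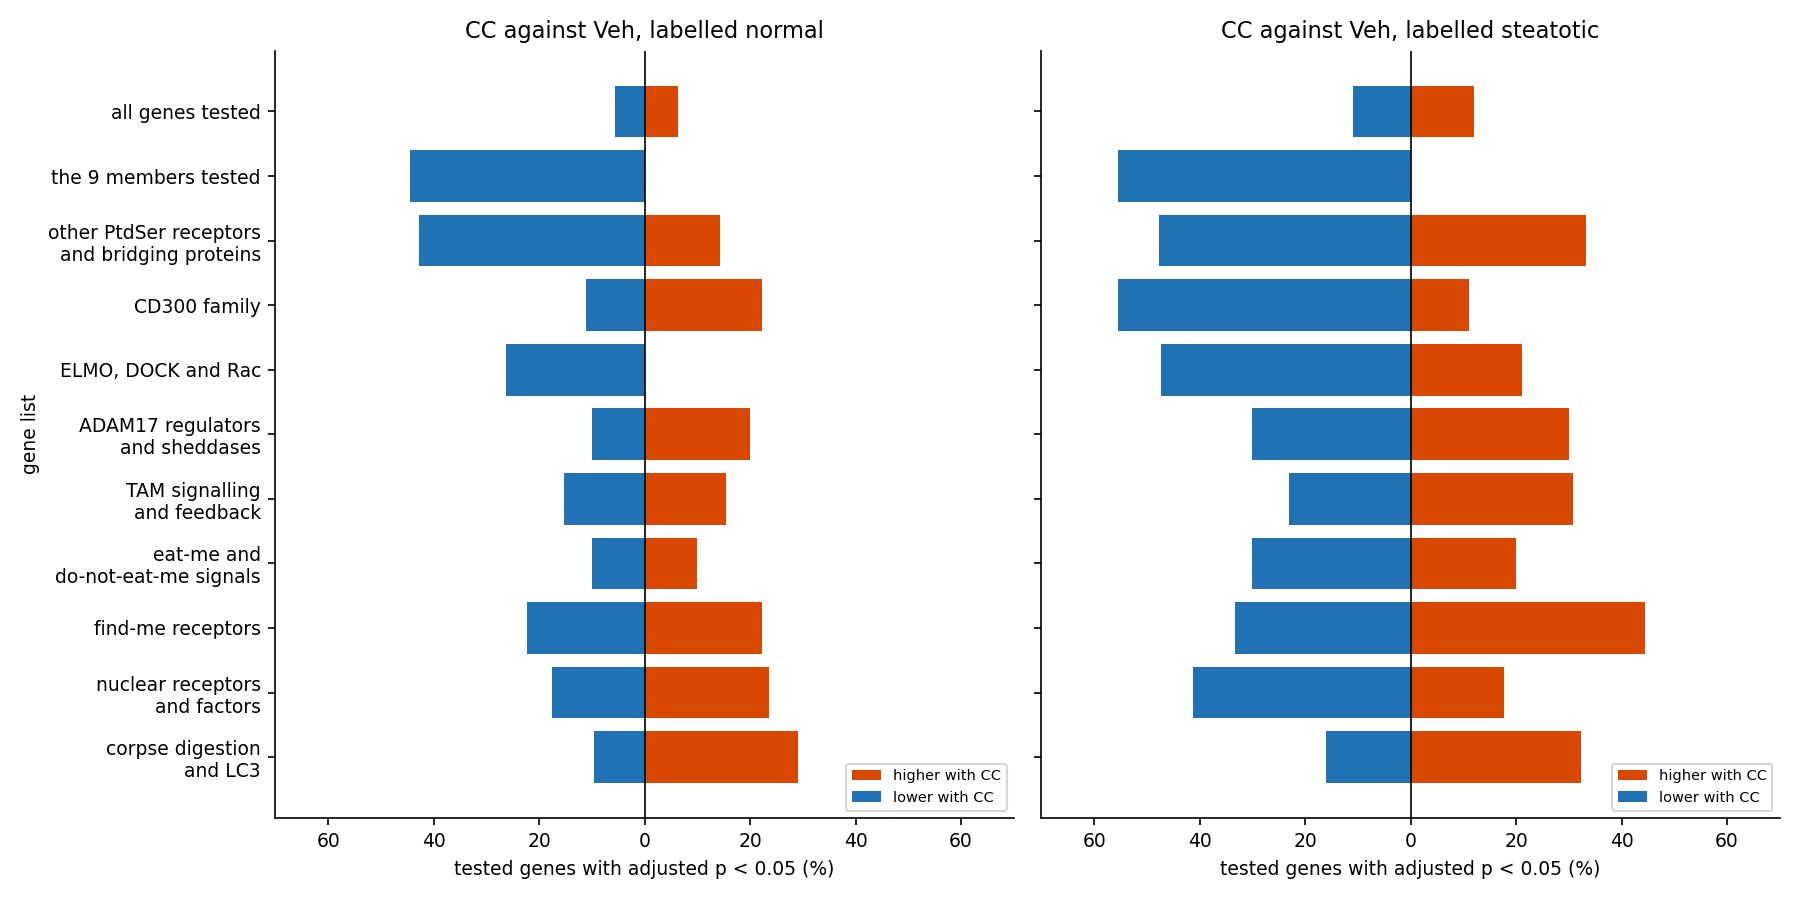
Share of tested genes (horizontal axis, percent) that rose (right) or fell (left) with CC at an adjusted p under 0.05 in edgeR, for all tested genes, the 9 members and 9 pathway lists, with the label normal on the left and steatotic on the right. Of the 9 members, 4 and 5 fell and 0 rose, where 5.54% and 10.9% of all tested genes fell and 6.27% and 12% rose. In the ELMO, DOCK and Rac list, 5 of 19 fell and 0 rose with the label normal.

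**Figure D4:**
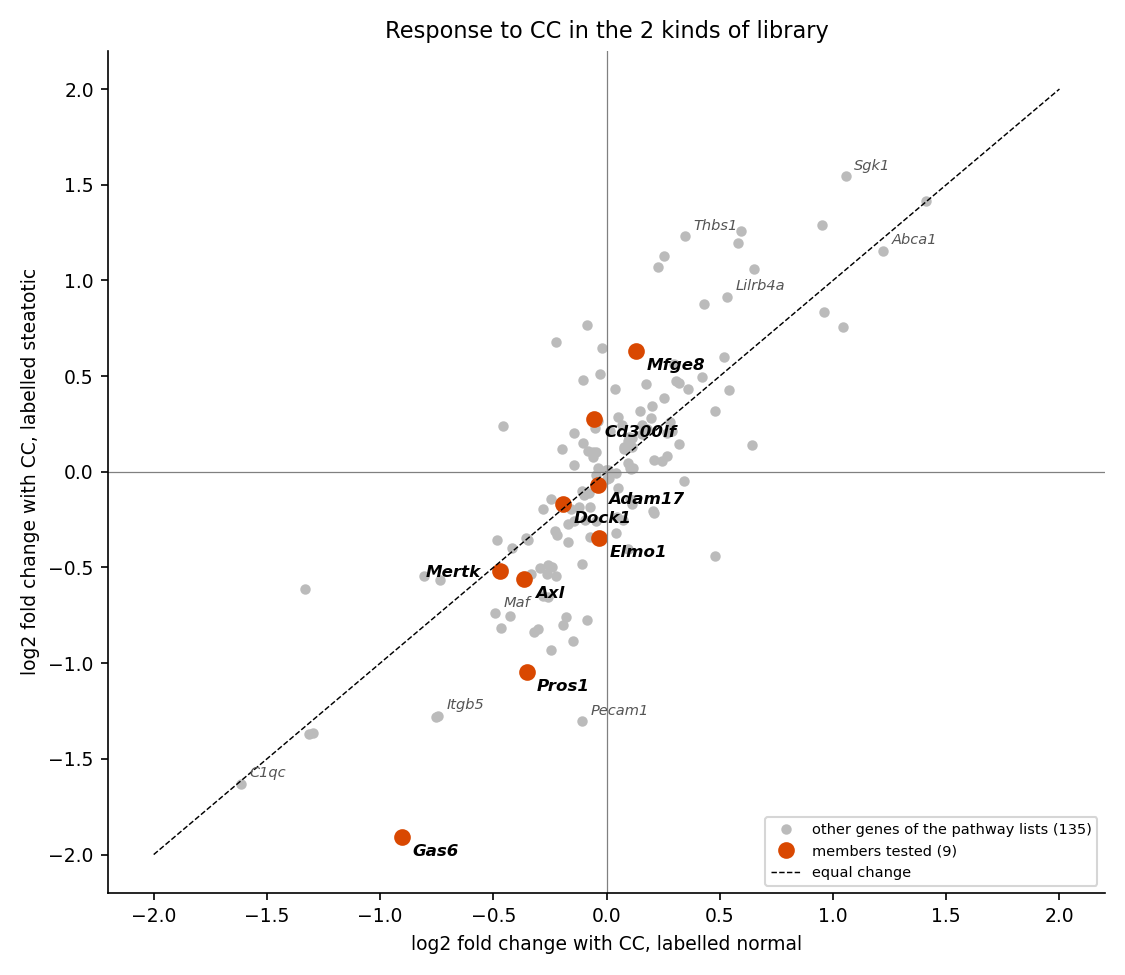
Log2 fold change with CC in the libraries labelled steatotic (vertical axis) against that in the libraries labelled normal (horizontal axis), for the 9 tested members and 135 other genes of the pathway lists; *Havcr1* lies outside the axes. *Gas6* and *Pros1* lie below the dashed line of equal change, and *Mertk* lies close to it.

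Across the 8 libraries, the members differed in how closely their levels moved together. The 8 points share 4 group means, so the correlations are descriptions. *Axl* and *Gas6* had a Pearson correlation of log2 CPM of 0.99, *Gas6* and *Pros1* of 0.98, and *Mertk* and *Axl* of 0.75. *Mfge8* ran against *Gas6* (−0.71), and *Adam17* had 0.05 with it. Among 9022 genes with a mean log2 CPM above 3, *Gas6* was most like *Rnf144b* (0.995), *Fads1* (0.994) and *Scamp5* (0.994). *Pros1* was most like *Lrp5* (0.995), *Dab2* (0.993) and *Fads1* (0.992), *Axl* like *Rnf144b* (0.992), and *Mertk* like *Pdgfc* (0.995), *Gnai2* and *Wdr41* (0.994 each). With Spearman's rank correlation in place of Pearson's, 1 of the 3 genes stayed for each of *Gas6* and *Pros1* and 0 of 3 for *Mertk*.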

How the data were processed

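RNA of hepatic macrophages was measured in 8 libraries, 2 for each of 4 groups taken from the labels. The authors used fastp to trim the paired-end reads of 150 bp, HISAT2 to align them to mm10 and StringTie to quantify genes (versions not given in the sources used here). The deposited table holds estimated counts (expected counts) of 55401 genes, in whole numbers, neither normalized nor pooled. How coverage was turned into counts is not given in the sources used here. Of the values from 1 to 20, 35.6% were multiples of 4, so 1 fragment may stand for about 4 counts and the counts may overstate the depth; counts divided by 4 were an alternative.

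Counts were used as deposited in R 4.3.3. The 15202 genes that reached 0.5 CPM in 1 or more libraries entered 1 edgeR 4.0.16 quasi-likelihood model (robust, limma 3.58.1) with 4 group means and TMM factors of 0.981 to 1.03. The common biological coefficient of variation was 0.171. Benjamini-Hochberg adjustment was made over the 15202 genes, separately for each of 5 comparisons, and the threshold was 0.05. Standard errors came from the F statistic, and intervals are 95% intervals of the model. Exon lengths were taken from GENCODE on GRCm38, the build mm10, and promoters from RefSeq on GRCm38.p6, where all 10 members were found. The steps were run on simulated counts drawn from the fitted spread. These held neither several counts per fragment nor technical replicates, so those limits were not tested.

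The members and lists were chosen with earlier results of these data known. From each pathway list, the genes named were drawn from those with the lowest or the highest log2 fold change in any comparison. Only genes past the threshold with a mean log2 CPM above 3 were ranked. Relatives or regulators of members that the same rule lists could be named too (*Elmo2*, *Dock2*, *Adam10*, *Timp3*, *Rhbdf2* and the CD300 family). Not every gene picked in this way is named, and some are given for comparisons in which another gene was the extreme. Likeness used log2 CPM with a prior count of 4. Alternatives were DESeq2 1.42.0, its size factors, library size only, 2 other filters, a prior count of 4, the replicate block, only the 4 libraries of a comparison, an adjusted p under 0.1, glmTreat against a 1.5-fold change and each library left out in turn. Figures were drawn with matplotlib 3.10.9.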

Additional observations from a re-analysis of the deposited data

Results flagged for a closer look

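The responses to CC differed between the libraries labelled steatotic and those labelled normal, by a test of the difference itself (edgeR quasi-likelihood interaction), for 2 members and for 13 other genes named from the pathway lists. A negative value is a lower response with the label steatotic, on the log2 scale. The difference was −1.01 for *Gas6* and −0.69 for *Pros1*, both TAM ligands.

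Among receptors and bridging proteins, it was −0.53 for *Itgb5* and 0.89 for *Thbs1*. In the engulfment machinery, *Dock10* differed by 0.30 (0.27 with the label steatotic against −0.04 with the label normal) and *Rac2*, encoding the Rac GTPase of blood cells, by −0.41 (−0.21 against 0.21). Of the signalling partners, *Pik3r1*, the regulatory subunit of PI3 kinase, differed by −0.36 and *Lgals3*, encoding galectin-3, by 0.67, and *Lgals3* was at 3243 and 3352 CPM with the label steatotic and Veh and at 5260 and 5055 with CC, against 6497 to 6892 in all libraries labelled normal. *Pecam1* differed by −1.20 and the inhibitory receptor gene *Lilrb4a* by 0.38. Of the receptors for find-me signals, *P2ry6*, which senses UDP, differed by −0.52 and *S1pr1*, which senses sphingosine 1-phosphate, by 0.54. *Tgm2*, the transglutaminase used in efferocytosis, differed by −0.42. In corpse digestion, *Lipa*, the lysosomal acid lipase, differed by −0.28 and *Sgk1*, a serum-induced kinase, by 0.49. When libraries were left out in turn, the calls of *Dock10*, *Rac2*, *Pik3r1*, *Lilrb4a*, *P2ry6*, *S1pr1* and *Lipa* were each lost at least once, with adjusted p up to 0.0821, 0.124, 0.150, 0.108, 0.0609, 0.0716 and 0.0578 by edgeR, and that of *Pros1* without 4 of the libraries (up to 0.0542).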

How the results depend on the processing

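The falls of *Gas6* with CC passed the threshold with each label under all 19 alternatives, as did that of *Pros1* with the label steatotic. Under glmTreat against a 1.5-fold change, the members called numbered 0 between livers with Veh, 1 and 2 for the CC responses under the labels normal and steatotic, 1 between livers with CC and 0 for the difference between responses, and all genes called numbered 1194, 175, 624, 1040 and 45; the *Gas6* difference then had an adjusted p of 0.076. The replicate block and the fit of only 4 libraries each left 1 member called between livers with Veh. At an adjusted p under 0.1, 777 genes differed between responses, against 490. Leaving out each library gave 0 to 3 members called between livers with Veh, 3 to 6 between livers with CC and 1 to 2 for the difference between responses, and 1020 to 1761 genes called for the CC response under the label normal and 298 to 427 for the difference. The lone library of a group was then assumed to vary like the others.

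Reversals concerned values near 0 that were not called. For *Gas6* between livers with Veh, the value was 0.002 in DESeq2 and with its size factors, and −0.066 to 0.059 with a library left out. With a library left out, the response in the libraries labelled normal ranged from −0.150 to 0.491 for *Mfge8*, −0.131 to 0.075 for *Adam17* and −0.142 to 0.046 for *Cd300lf*. The difference between responses then ranged from −0.109 to 0.014 for *Mertk*, −0.114 to 0.149 for *Dock1* and −0.145 to 0.061 for *Adam17*. Across all member results, 758 values kept direction and side of the threshold, 49 lost the call, 27 gained it and 12 turned in sign. For the other genes named, 2232 kept both, 244 lost the call and 0 turned in sign.

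The labels do not say that a replicate number marks shared animals, and deviations of libraries with the same number correlated between −0.005 and 0.063, so the numbers were not taken as pairs. With the replicate block, *Elmo1* lost its call with Veh (adjusted p = 0.0666 by edgeR) and the *Gas6* difference had an adjusted p of 0.00823. Calls of other named genes were lost too, among them the differences of *Pik3r1* (0.0831) and *Lilrb4a* (0.0563). The CC calls of *Elmo2* with the label normal (0.0768) and *Cd300lb* with the label steatotic (0.0591) were also lost.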

Other observations

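With Veh, 16.4% of all tested genes were higher and 14.3% lower with the label steatotic, and these included genes of the pathway lists. *Cd47*, the do-not-eat-me signal, was at 357 and 390 CPM with the label normal and at 739 and 743 with the label steatotic (log2 fold change 0.99, adjusted p = 7.1e-06 by edgeR). *Fpr2*, a receptor for annexin A1 and other find-me signals, was 1.15 higher on the log2 scale, and *Lilrb4a* was 0.75 lower, at 1116 and 1033 CPM against 656 and 619. *Adam15*, a relative of *Adam17*, was 3.29-fold higher, from 8.02 and 9.34 to 27.5 and 29.6 CPM. *Maf* was 2.19-fold higher, from 351 and 353 to 778 and 763 CPM.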
